A study of Mus musculus with 12 samples.

Results

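Notch genes were examined in mouse splenic B cells with DNA damage. The 10 genes are the receptors Notch1, Notch2, Notch3 and Notch4, the ligands Dll1 and Jag1, the DNA-binding effector Rbpj, and the target genes Hes1, Hey1 and Dtx1. They were taken by symbol from the 29486 genes of the deposited count table, which lists each of the 10 on 1 row. They were chosen by the etoposide values of these data, in which the count of Notch3 was among those that differed most, so values in all 3 conditions are given as a description.

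The cells were primary splenic B cells of C57BL/6Babr mice. All cells received LPS (10 μg/ml), a mitogen that drives B cells into division. The 3 conditions had 4 libraries each: LPS alone (48 h), LPS (48 h) followed by etoposide (20 μM, 4 h), and LPS (47 h) with the ATM kinase inhibitor KU55933 (10 μM) given 1 h ahead of etoposide (20 μM, 4 h). The inhibitor is spelled KU59933 in one label of its 4 libraries. Etoposide traps topoisomerase II and leaves double-strand breaks, and ATM is the kinase that signals such breaks. No cells received KU55933 without etoposide, the labels do not say how long cells with LPS alone stayed in culture, and a condition shares no Illumina index with another. These differences cannot be told apart from the treatments.

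Notch receptors are surface proteins that are cut when a ligand of the Delta or Jagged families on a neighbouring cell binds them. The last cut, by γ-secretase, frees an intracellular part that enters the nucleus, joins Rbpj and Mastermind proteins and turns on target genes such as those of the Hes and Hey repressor families. In the spleen Notch2 is known for its need in marginal zone B cells, which the ligand Dll1 on stromal cells maintains, and Dtx1 and Cr2 mark that state.

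The values are mean counts fitted by the authors to each condition. The 4 columns of a condition were the same for every gene apart from a library factor, to within 2.8e-14 on the log2 scale, so each condition gives 1 value a gene and no spread between replicates. No test was run on these values. A gene is said to differ where (count + 1), after scaling to equal depth, differed at least 2-fold. Genes were kept if any condition reached 10 counts, which left 15616. The 95% intervals given in parentheses are exact (Clopper-Pearson) intervals of the ratio of summed counts. They cover counting error only and are narrower than the error between cultures. Column totals, which stand for depth, lay between 20400994 and 30575195 counts. B cell markers were abundant, with Cd79a at 21529 counts with LPS alone. All 16 listed p53 targets were at least 2-fold higher with etoposide, where 15.3% of all genes kept were higher. Among them, Cdkn1a had 397 counts with LPS and 13749 with etoposide. The list was chosen with earlier results of these data known, so it is not an independent check of the treatment.

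The sequence before the start of Notch3 is shown because no gene of the table differed more with etoposide at this pseudocount. The 250 bases upstream of its RefSeq start (GRCm38.p6, chr17:32166891-32167140, minus strand, printed 5′ to 3′) hold the letters CACNAG, the N-box that Hes repressors are known to bind, in 2 places. They are in capitals, the second on the opposite strand.

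Notch3 upstream: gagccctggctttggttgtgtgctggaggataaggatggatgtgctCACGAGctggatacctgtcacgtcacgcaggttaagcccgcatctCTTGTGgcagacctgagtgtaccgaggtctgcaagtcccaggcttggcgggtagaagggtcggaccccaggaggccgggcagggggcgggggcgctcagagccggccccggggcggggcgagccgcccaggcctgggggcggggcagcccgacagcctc

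RefSeq windows of 300 bases, 250 before to 50 after a start, were matched for 8 of the 10 genes. Hes1 and Hey1 had no window, so these target genes were not searched. Letters were searched on both strands. A gene counts if any of its windows matched, and Rbpj and Dll1 had 2 windows each. The shares over all windows are per single window, so the 2 measures differ. The Rbpj core TGGGAA stood in the windows of 1 of these 8 genes, Rbpj itself, against 25.6% of all 32851 windows. The longer form GTGGGAA, which contains the core, was in none of the 8, against 6.38% of all windows. CACNAG was found for 5 of the 8 (Notch1, Notch2, Notch3, Dtx1 and Dll1) and in 42.5% of all windows, and the E-box CACGTG in none of the 8 and 7.15% of all. The p53 response element was matched in none of the 8 and in 0.0731% of all windows. Of the 2 windows of Cdkn1a, 1 held it. Beyond the 10 genes, only Jag2, Hey2, Hes5 and Cdkn1a were picked for a search by name, so other Notch target genes were not examined. The windows of Hes5 and Hey2 held GTGGGAA on each strand, and that of Jag2 had 0 matches to it. The stretches below show the core of Rbpj and the longer form of Hes5 and Hey2 in capitals, in the direction of each gene (GRCm38.p6). They lie at chr5:53590185-53590214 and chr5:53590269-53590298 (plus strand) for Rbpj, chr4:154960829-154960858 (plus strand) for Hes5 and chr10:30842972-30843001 (minus strand) for Hey2.
Rbpj first: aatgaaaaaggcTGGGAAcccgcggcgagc
Rbpj second: gacgctcgcattTTCCCAggacccctcctc
Hes5: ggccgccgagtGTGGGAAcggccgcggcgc
Hey2: gcgcggtggcaTTCCCACgcctctgccaac

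With etoposide, the receptors differed in direction. Notch3 was 202-fold higher, Notch1 was 2.55-fold higher and Notch2 was 1.75-fold lower, and Notch4 had 22.3 counts with LPS and 19.3 with etoposide. Both ligands and Hes1 were more than 2-fold higher, and Rbpj was 1.07-fold lower. Of the 9 genes that passed the filter on low counts, 5 were at least 2-fold higher, 0 at least 2-fold lower and 4 within 2-fold. Hey1, at 1.83 to 7.07 counts, did not pass. Over all 15616 genes, 20.2% differed at least 2-fold, with 15.3% higher and 4.87% lower. Nothing is read from this count, since these values helped to choose the genes. The share of higher among all 3156 genes that differed was 75.9%, and it was 88.6% when the columns were used as deposited, without scaling.

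**Figure D1:**
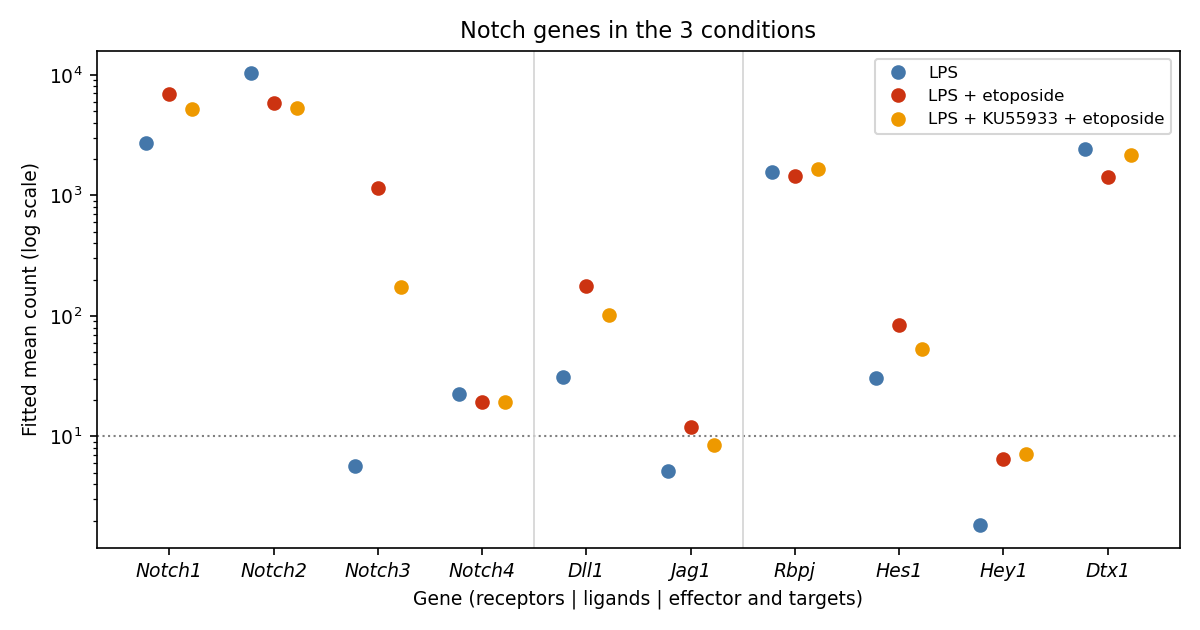
Fitted mean count (log axis) of the 10 genes in the 3 conditions, 1 point a condition, with the filter of 10 counts as a dotted line. Notch3 goes from 5.72 with LPS to 1154 with etoposide and stands at 173 after the inhibitor, while Notch2 is highest with LPS alone.

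Notch3 (ENSMUSG00000038146, GRCm38 chr17:32120820-32166852, minus strand) encodes a receptor best known from vascular smooth muscle. Its deposited values in the 4 LPS libraries were 4.85, 5.38, 5.59 and 5.04. They were 1097, 1229.5, 1489 and 1192 with etoposide. With KU55933 as well, they were 155, 175, 187 and 190.04. Within a condition these values differ by the library factors alone, as do those printed for the genes below, so they show no spread between replicates. After scaling, the log2 ratio of counts between etoposide and LPS was 7.66 (7.03 to 8.34), which rests on about 5 counts a library with LPS. On the log2 scale of (count + 1) the difference was 7.43, the largest of the 15616 genes, followed by Sec14l5 at 7.40 and Celf5 at 7.20. With no pseudocount, an alternative chosen after seeing the data, Notch3 had rank 2, after Sec14l5 at 7.69. With factors fitted here to the authors' mean over all libraries, the 3 values of Notch3 averaged 97.1% of that mean. The other 9 genes came to 98.2% to 101%. The ratios above use other factors.

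With KU55933 before etoposide, Notch3 was 6.68-fold lower than with etoposide alone, a log2 ratio of −2.74 (−2.86 to −2.63). On the scale of (count + 1) its change ranked 13 from the lowest of the 15616 genes. Its level still lay 30.2-fold above LPS alone. Of the 9 genes past the filter, Notch3 was the 1 that differed at least 2-fold between KU55933 plus etoposide and etoposide. Over all genes the share was 6.42%, with 1.69% higher and 4.73% lower.

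**Figure D2:**
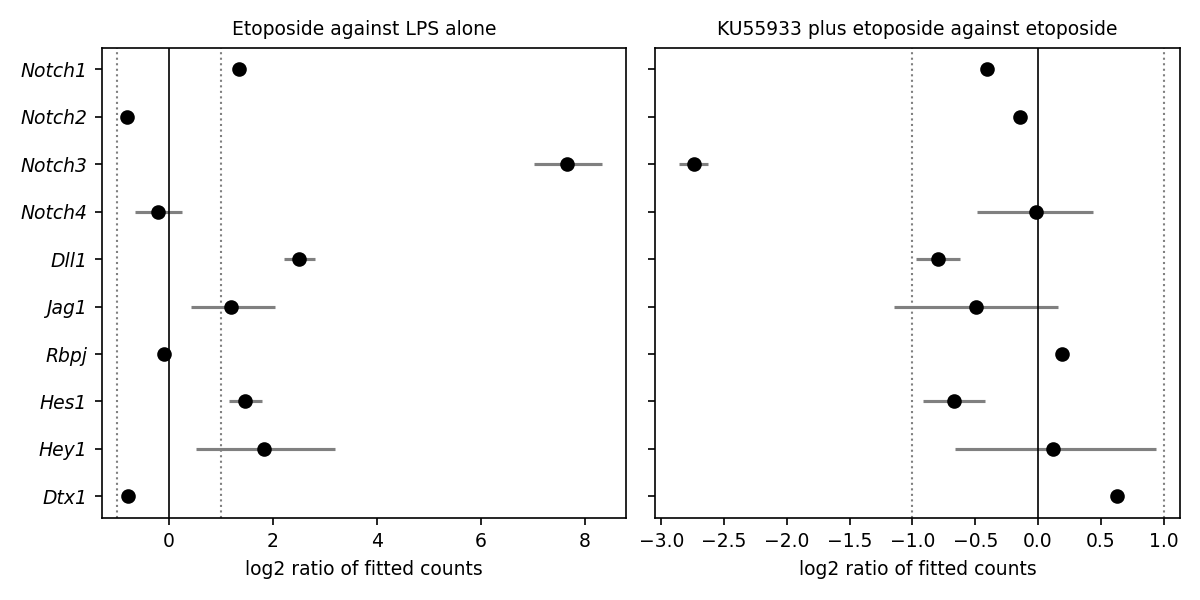
log2 ratio of fitted counts of the 10 genes for etoposide against LPS (left) and for KU55933 plus etoposide against etoposide (right). Points are the ratios, lines are 95% exact intervals of counting error only, and dotted lines mark 2-fold. Notch3 lies at 7.66 on the left and at −2.74 on the right.

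Notch1 (ENSMUSG00000026923, chr2:26457903-26516663, minus strand), a receptor required for T cell development, had deposited values of 2301, 2553, 2655 and 2393 with LPS. With etoposide they were 6573, 7367, 8922 and 7142, and with KU55933 and etoposide 4684, 5282, 5659 and 5752. As for Notch3, the values within a condition differ by library factor alone. After scaling, Notch1 was 2.55-fold higher with etoposide (log2 ratio 1.35, interval 1.32 to 1.38). It was 1.32-fold lower with the inhibitor than with etoposide alone (log2 ratio −0.40, −0.43 to −0.38), which is within 2-fold, and 1.93-fold above LPS.

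Notch2 (ENSMUSG00000027878, chr3:98013527-98150361, plus strand) was the receptor with the highest count with LPS alone. Its deposited values were 8716, 9669.6, 10059 and 9064 with LPS and 5569, 6242, 7559.7 and 6051 with etoposide. When KU55933 was added they were 4742, 5348, 5729 and 5823. These are unscaled, and within a condition they differ by library factor alone. After scaling, Notch2 was 1.75-fold lower with etoposide (log2 ratio −0.81, −0.83 to −0.79) and a further 1.11-fold lower with the inhibitor. Against LPS alone, the cells with KU55933 and etoposide had 1.94-fold less, a log2 change of −0.96 on the scale of (count + 1). It was past 2-fold with 3 other scalings, at −1.02 with TMM, −1.01 with the upper quartile and −1.04 with factors fitted here to the authors' mean over all libraries.

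Notch4 (ENSMUSG00000015468, chr17:34564268-34588503, plus strand), a receptor known from endothelium, had 22.3, 19.3 and 19.1 counts in the order LPS, etoposide, and the inhibitor with etoposide. The counting interval of its log2 ratio with etoposide, −0.66 to 0.26, includes 0.

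Levels can be compared between genes only per length, so counts were divided by exonic length (GENCODE M21) and expressed as TPM, a share of the total over all genes with a length. The 4 receptors together had 143 TPM with LPS, 144 TPM with etoposide and 112 TPM after the inhibitor. Their make-up differed more than their sum. Notch2 made up 83.1% of receptor TPM with LPS, 46.3% with etoposide and 55.7% with the inhibitor. Notch1 made up 16.6%, 41.4% and 41.7% in the same order. Notch3 made up 0.0616% with LPS, 12.1% with etoposide and 2.42% with the inhibitor, and Notch4 at most 0.269%. The order by TPM was Notch2, Notch1, Notch4, Notch3 with LPS alone and Notch2, Notch1, Notch3, Notch4 in the other conditions. The ratio of Notch2 to Notch1 in TPM was 5.00 with LPS, 1.12 with etoposide and 1.34 with the inhibitor. Which of them stood higher with etoposide depended on the length used, because the annotated exons of Notch1 (14232 bp) far exceed its coding part. Per coding length, the ratio with etoposide was 0.872.

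**Figure D3:**
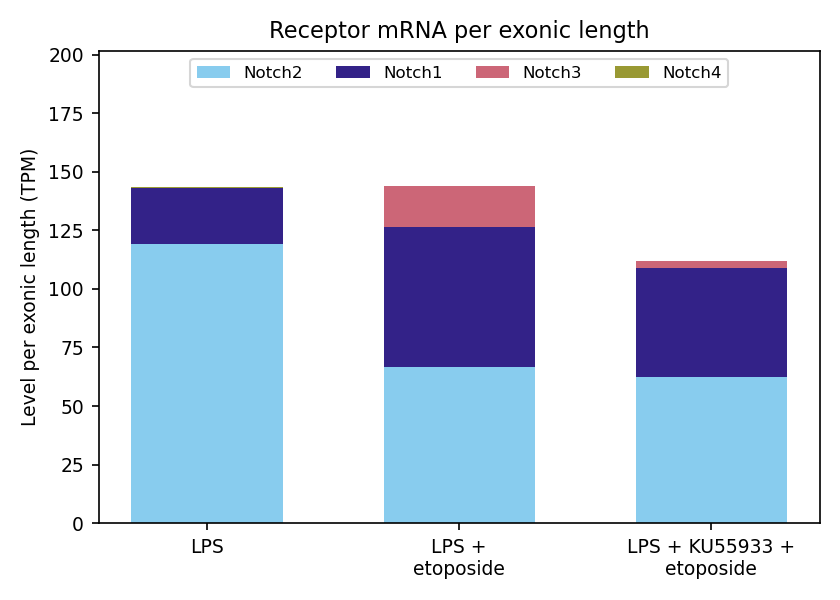
Level per exonic length (TPM, stacked bars from 0) of the 4 receptors in the 3 conditions. The summed bars reach 143, 144 and 112 TPM, and the Notch2 part shrinks from 119 TPM with LPS to 66.6 TPM with etoposide while Notch1 and Notch3 take more.

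Of the ligands, Dll1 (ENSMUSG00000014773, chr17:15367354-15376872, minus strand) had deposited values of 26.3, 29.2, 30.4 and 27.4 with LPS. They were 167, 187, 227 and 182 with etoposide and 90.7, 102, 109.6 and 111 with KU55933 and etoposide. After scaling, Dll1 was 5.66-fold higher with etoposide (log2 ratio 2.50, 2.22 to 2.80). With the inhibitor it was 1.74-fold lower than with etoposide alone (log2 ratio −0.80, −0.97 to −0.62) and 3.26-fold above LPS. Jag1 (ENSMUSG00000027276, chr2:137081456-137116644, minus strand), a ligand of the Jagged family, was low in every condition, with 5.20 counts with LPS, 11.9 with etoposide and 8.44 with the inhibitor. Its log2 change of (count + 1) with etoposide was 1.06, just past 2-fold, and was under it with factors fitted here to the authors' mean over all libraries (0.98). The counting interval of its log2 ratio was 0.42 to 2.04. In TPM, Dll1 stood at 5.11 and Jag1 at 0.2501 with etoposide.

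Rbpj (ENSMUSG00000039191, chr5:53466152-53657362, plus strand), the DNA-binding partner of every Notch receptor, had 1564, 1456 and 1663 counts in the same order. The log2 ratios were −0.10 (−0.15 to −0.051) for etoposide against LPS and 0.19 (0.14 to 0.24) for the inhibitor against etoposide. The first turned to 0.15 on the scale of (count + 1) when the columns were not scaled.

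The target genes did not share a direction. Hes1 (ENSMUSG00000022528, chr16:30064384-30067796, plus strand), a transcriptional repressor, had deposited values of 25.8, 28.6, 29.7 and 26.8 with LPS. They were 79.7, 89.4, 108 and 86.7 with etoposide and 47.4, 53.4, 57.2 and 58.2 with KU55933 and etoposide. After scaling, Hes1 was 2.76-fold higher with etoposide (log2 ratio 1.47, 1.15 to 1.78) and 1.59-fold lower with the inhibitor than with etoposide alone (log2 ratio −0.67, −0.92 to −0.42). Hey1 (ENSMUSG00000040289, chr3:8663359-8667256, minus strand), a repressor of the related Hey family, had 1.83 counts with LPS, 6.51 with etoposide and 7.07 with the inhibitor, under the filter throughout. The ratio of etoposide to LPS was 3.56, with a counting interval of 0.52 to 3.19 for its log2 value.

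Dtx1 (ENSMUSG00000029603, chr5:120680202-120711927, minus strand) encodes a ubiquitin ligase of the Deltex family and is a known Notch target in marginal zone B cells. Its deposited values were 2051, 2275, 2367 and 2133 with LPS and 1336, 1498, 1814 and 1452 with etoposide. When KU55933 was added they were 1948, 2197, 2354 and 2393. Within a condition these values too differ by library factor alone. After scaling, Dtx1 was 1.72-fold lower with etoposide (log2 ratio −0.78, −0.83 to −0.74) and 1.55-fold higher with the inhibitor than with etoposide alone (log2 ratio 0.63, 0.58 to 0.68). Against LPS alone its log2 change with the inhibitor was −0.15 on the scale of (count + 1), and 0.011 without scaling.

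The level with the inhibitor can be set against the gain of each gene with etoposide, on the linear scale and with LPS alone as 0. With KU55933, Notch3 kept 14.5% of its gain, Hes1 42.0%, Jag1 48.4%, Dll1 48.5% and Notch1 59.8%. The order of the genes depended on the scale. On the log2 scale of (count + 1) the shares were 54.3% for Hes1, 57.5% for Jag1, 63.2% for Notch3, 67.9% for Dll1 and 70.1% for Notch1. These shares use the etoposide values by which the genes were chosen. No test of these differences between genes was possible.

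For KU55933 plus etoposide against LPS alone, 2 of the 9 genes past the filter, Notch3 and Dll1, were at least 2-fold higher and 0 were lower. With scaling by column totals or none, Notch1 was also past 2-fold, at log2 changes of 1.05 and 1.11, and Notch2 was past 2-fold lower with the 3 scalings named above. Over all genes 17.3% differed, with 12.3% higher and 5.03% lower. The share of higher among them was 71.0%, and 81.9% without scaling. All comparisons share libraries, so the values of a gene in them are not independent.

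Other genes of the pathway were taken from 7 lists by role with 61 genes, of which 56 passed the filter. With etoposide, 6 of the 56 were at least 2-fold higher, 4 lower and 46 within 2-fold, where 15.3% of all genes were higher and 4.87% lower. Their median log2 change was 0.0012, against 0.068 over all genes. The 3 that were furthest above LPS were Heyl (4.86 counts with LPS and 219.8 with etoposide) and Hey2 (2.93 and 112), both Hey family repressors, and the ligand Jag2 (56.7 and 908). Jag2 was 16.0-fold higher. With Dll1 it was 1 of 2 Notch ligands above 100 counts with etoposide, while Dll3 and Dll4 reached 6.81 and 7.42. The 3 furthest below LPS were Cr2, the complement receptor of marginal zone and follicular B cells (5297 and 1953 counts), and the Mastermind coactivators Maml2 (818 and 316) and Maml3 (359 and 141). Maml1, of the same family, had 1207 and 1721 counts.

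Within the roles, the 10 protease genes, which include ADAM proteases and γ-secretase subunits, and the 10 corepressor genes were all within 2-fold with etoposide. Since 20.2% of all genes were outside 2-fold, nothing particular to these short lists is read from that. The γ-secretase subunit gene Aph1c (17.9 and 36.7 counts) lay at the limit, with a log2 change of 0.9988. Of 7 listed target genes past the filter, 3 were higher (Heyl, Hey2 and Nrarp, a feedback inhibitor) and 1 was lower (Cr2). Of 5 glycosyltransferases that modify the receptors, Poglut1 was higher, at 1258 counts with LPS and 3209.8 with etoposide. Lfng, a Fringe enzyme, went from 346 to 181 counts, within 2-fold. Of 15 turnover and trafficking genes, 1 was higher (Numbl) and 1 lower (Neurl3).

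Between KU55933 plus etoposide and etoposide, 2 of the 56 genes were at least 2-fold higher, 3 lower and 51 within 2-fold, where 1.69% of all genes were higher and 4.73% lower. These counts are small and nothing is read from them about the pathway. The 56 genes had a median log2 change of −0.044 against −0.052 over all genes. The higher genes were Neurl3 (1229 counts with etoposide and 4449.7 with the inhibitor) and Mib2 (601 and 1833), both coding for ubiquitin ligases of families that act on ligands. The lower genes were Hey2 (112 and 17.4), Hes5 (46.2 and 14.96) and Jag2 (908 and 362). Heyl went from 219.8 to 147 counts, within 2-fold.

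**Figure D4:**
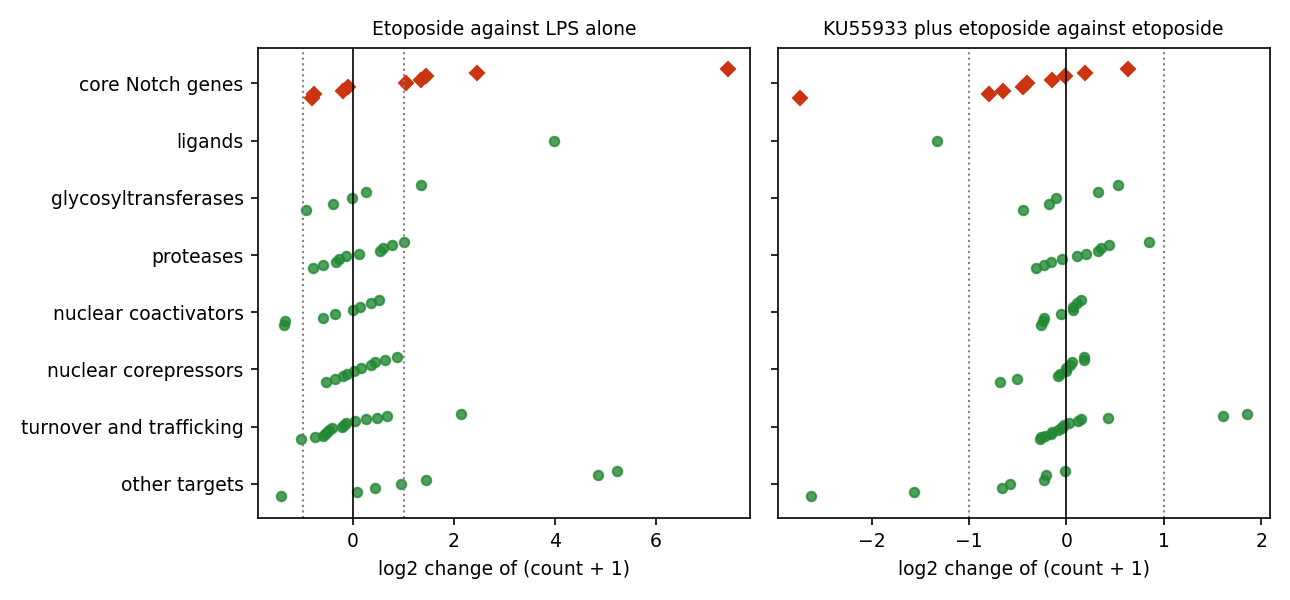
log2 change of (count + 1) for the core Notch genes past the filter (red diamonds) and the 56 other pathway genes by role (green points), for etoposide against LPS (left) and KU55933 plus etoposide against etoposide (right). Dotted lines mark 2-fold. All 10 protease and all 10 corepressor genes lie within the lines on each side, Aph1c at 0.9988 next to the line on the left.

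The genes whose 2 log2 changes, etoposide against LPS and KU55933 plus etoposide against etoposide, were nearest to those of Notch3 were Sec14l5 (distance 0.36), Celf5 (0.69) and Robo3 (1.16). They were taken from 11010 genes with at least 100 counts with etoposide. Sec14l5 had 4.40, 909 and 175 counts and Celf5 6.73, 1138 and 269 in the order LPS, etoposide, and KU55933 with etoposide. The likeness is measured over 3 conditions only. It uses the etoposide change by which Notch3 was chosen, and the minimum count was set in the condition where these genes are high. Sec14l5 and Celf5 were also ranks 2 and 3 in that change, so nothing further is read from the likeness.

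Among genes within 100 kb of Notch3, Rrp1b had 2698 counts with LPS and 2269 with etoposide. Ephx3, 16918 bp away, had 7.23 and 34.9 counts, a smaller difference than that of Notch3. An antisense gene that overlaps Notch3, Gm17276, stayed at or under 1.15 counts. On the opposite strand, 0610009E02Rik and Gm13568 overlap Notch1 and had at most 15.5 and 0.168 counts, and A930024N18Rik, which overlaps Dll1, had at most 8.20. Whether counting used strand is not given in the sources used here, so reads from overlapping stretches cannot be assigned with certainty.

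In bulk samples, fewer cells of a type and less RNA per cell cannot be told apart. Some marker genes differed between the conditions. The summed counts of 10 B cell markers were 480775 with LPS, 381615 with etoposide and 395477 with the inhibitor. Of these markers, 4 (Cd22, Pax5, Ebf1 and Blk) were at least 2-fold lower with etoposide, where 4.87% of all genes were lower. For KU55933 plus etoposide against LPS alone, 5 of the 10 were lower, where 5.03% of all genes were. The summed counts of 10 stroma and pericyte markers, cells that express Notch3, were 97.6, 291 and 169.5, of which Tagln made up 70.8, 186 and 134. Pdgfrb had 12.7, 68.3 and 20.2 counts and Des 1.16, 19.1 and 2.06. Pdgfra, Col1a2, Col3a1, Cspg4 and Rgs5 were at or under 1.54 counts in every condition, Acta2 at or under 3.68 and Col1a1 at or under 11.4. The 7 endothelial markers summed to 3732, 1317 and 2158, of which Pecam1, which B cells also express, made up 3531, 1074 and 1919. Tek had 3.05, 47.7 and 28.6 counts, higher with etoposide as Notch3 was, Cdh5 had 39.2, 26.9 and 15.6, Kdr 27.2, 21.95 and 52.2 and Vwf 131, 145 and 142. Tie1 and Emcn were under 1 count. The 10 T cell markers summed to 441, 347 and 307, mostly Lck, with Cd3e, Cd3d and Cd3g at most 3.59. The part of other cells in the Notch values was not tested.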

How the data were processed

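mRNA of 12 libraries was sequenced by the authors (TruSeq stranded kit, HiSeq2000, single end). Per the methods and the submitters' processing notes, reads were trimmed with Trim Galore and cutadapt 1.2.1, mapped to GRCm38 with TopHat2 2.0.12, counted with HTSeq on Ensembl genes and fitted with DESeq2 1.6.3. The deposited table holds a signal: the mean count fitted to a condition times a library factor. The limma test planned for replicate values could therefore not be run. Factors were also fitted to the authors' mean count over all libraries, for genes where it was at least 100. Means of the values so scaled were 97.9% to 100.1% of it, save for the outer 1% of these genes on each side. Such a match is what the fit aims at. From the 3 deposited comparisons of the authors, only the mean count signal over all libraries was used, and their fold changes, standard errors, Wald statistics, p-values and adjusted p-values were not used.

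Columns were divided by factors from the median of ratios over genes with a mean of at least 100, and log2 changes use a pseudocount of 1. Groups follow the sample titles. The functions were tested on simulated data. Exonic lengths were found for 99.2% of genes in GENCODE M21, and 154 of 155 list symbols were matched. Promoter windows come from RefSeq (GRCm38.p6). Of the pathway lists, the 3 largest changes past 2-fold in each direction are named in 2 comparisons. Other genes given with values (Dll3, Dll4, Maml1, Lfng, Nrarp, Poglut1, Numbl, Aph1c and 2 neighbours of Notch3) were chosen after their values were seen. Genes and lists were chosen with earlier results of these data known. Scripts ran in Python 3.11.15 with matplotlib 3.10.9 for plots and pandas 2.3.3, numpy 2.4.6 and scipy 1.17.1 for computation. Other scalings, pseudocounts, filters and folds were tried. Some genes are not reported here.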

Additional observations from a re-analysis of the deposited data

How the results depend on the processing

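No paired analysis was possible because the deposited columns of a condition hold no spread between replicates, so that leaving out a replicate also changed no value (3156, 1002 and 2706 genes at least 2-fold apart for etoposide against LPS, KU55933 plus etoposide against etoposide, and KU55933 plus etoposide against LPS). A fold of 1.5 gave 5872, 2953 and 5627 genes in that order, and a fold of 4 gave 977, 128 and 538. For KU55933 against etoposide, a minimum of 50 counts in any condition left 622 and a minimum of 10 in every condition 551. These 2 filters left 1486 and 1481 genes higher with etoposide, against 2396. Unscaled columns left 404 genes lower with etoposide, against 760, and moved the median log2 change of all genes from 0.068 to 0.32. In that setting Notch4 and Rbpj turned to 0.044 and 0.15 with etoposide, and Dtx1 to 0.011 for the inhibitor against LPS. With scaling by column totals Notch4 turned to 0.038 for the inhibitor against etoposide. The ratio of Notch2 to Notch1 with etoposide was 0.872 per coding length and 0.847 in counts alone, against 1.12 per exonic length. Of the 8 genes with a window, the longer form GTGGGAA was found for 0, against 1 for TGGGAA. Under the 5 other scalings Notch3, Notch1, Dll1 and Hes1 stayed at least 2-fold higher with etoposide, while Jag1 was under 2-fold with 3 of them (0.98 with factors fitted to the authors' mean over all libraries). With a fold of 4, Notch1 and Hes1 no longer passed. The filter that asks for 10 counts in each of the 3 conditions removed Notch3, whose LPS level was 5.72 counts. Counts under about 10 a library limit Jag1, Hey1 and the LPS level of Notch3.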
